A study of Mus musculus with 17 samples.

Results

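The comparison described here sets mRNA on endoplasmic reticulum (ER) ribosomes after Nmd3 siRNA against the same after Gnl3 siRNA. It was chosen by label: the ribosome-bound libraries of the Nmd3 siRNA group (biological replicates 1 to 3) and of the Gnl3 siRNA group (biological replicates 1 to 3), 6 of the series' 17 libraries. All cells were E14Tg2a.4 mouse embryonic stem cells with a FLAG-TEV-AviTag on the ribosomal protein Rpl31 (Rpl31-FTA), grown in serum with leukemia inhibitory factor. In each culture ALIBi, which biotinylates tagged ribosomes close to the ER, marked the ribosomes that were then affinity purified, and polyA RNA was sequenced. Whole-cell libraries came from the same lysates. Scramble siRNA cells of the same line gave 2 ER ribosome-bound libraries (replicates 2 and 3) and 3 whole-cell libraries. All groups therefore share the tagged line, ALIBi labelling and an siRNA transfection, and differ in the siRNA. The sequence, dose and duration of each siRNA are not given in the sources used here, and neither is whether the tagged line is 1 clone.

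Nmd3 and Gnl3 act in the same assembly line. The large (60S) ribosomal subunit is built in the nucleolus and nucleoplasm and is taken through the nuclear pore by Nmd3, an adaptor that recruits the export receptor Crm1. Gnl3, also called nucleostemin, is a nucleolar GTPase that is abundant in stem cells and takes part in processing the precursor of the large subunit's rRNA. When ribosome assembly is disturbed, free 5S particles can bind Mdm2, the ligase that degrades p53, and p53 target genes rise. A separate control, the integrated stress response, lowers translation initiation through eIF2 and raises Atf4, which drives genes of amino acid synthesis, amino acid transport and tRNA charging.

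The 6 libraries held 16334218 to 29904256 gene counts, and the 2 scramble ER libraries 18531477 and 18911118. Levels below are TMM-scaled CPM, a gene's counts on the usual per-million scale. Of the stem cell markers Pou5f1, Sox2, Nanog, Esrrb, Zfp42, Klf4, Tfcp2l1 and Dppa5a, 8 of 8 were detected in every library, with an unscaled sum of 6650 to 7140 CPM after Nmd3 siRNA and 6250 to 6520 after Gnl3 siRNA. The 8 fibroblast or feeder markers summed to 39.1 to 42.0 and 39.7 to 41.7 CPM, mostly Thy1, and 4 of them stayed under 1. No marker was at 0 in all 6 libraries. Summed primitive endoderm markers (7) lay between 12.0 and 14.0 after Nmd3 siRNA and between 12.4 and 13.6 after Gnl3 siRNA, and endothelial or blood markers (7) between 105 and 134 and between 102 and 105. Trophoblast markers (8) summed to 140 to 152 after Nmd3 siRNA and 153 to 170 after Gnl3 siRNA, and 2-cell-like markers (7) to 16.8 to 21.9 and 20.5 to 25.7. Fewer cells of a type and less RNA per cell cannot be told apart in such bulk samples.

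Nmd3 siRNA replicate 2 stood apart from the other ER libraries. Set against replicates 1 and 3, it gave per-gene chi-square values of 8.59 and 10.2, while replicates 1 and 3 gave 3.14 between them and pairs of Gnl3 replicates 2.35 to 3.4. Among 9755 genes of at least 10 CPM, 255 were more than 0.5 (log2) above the other replicates in this library, with a median coding length of 3754.5 bases against 1389 for all. The largest gap was at Acaca, acetyl-CoA carboxylase, with 40.1, 170 and 37.0 CPM in Nmd3 replicates 1, 2 and 3. None of the 8 genes with the largest gap, among them Srrm2, Rrbp1, Son and Chd4, was called. List counts that moved by over 1.5 times without this library are given with and without it.

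The targeted genes separated the groups. Nmd3 (ENSMUSG00000027787.15) was at 25.2, 24.7 and 25.2 CPM on ER ribosomes after its own siRNA, and at 124, 119 and 119 CPM after Gnl3 siRNA. The scramble libraries held 124 and 120 CPM of it. Levels after Gnl3 siRNA thus lay beside those of scramble, and levels after Nmd3 siRNA far below, with no overlap. The log2 difference, Nmd3 minus Gnl3 siRNA, was -2.27 (SE 0.06, edgeR adjusted p = 4.83e-21), or 4.82-fold lower.

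Gnl3 (ENSMUSG00000042354.8) was at 164, 269 and 179 CPM after Nmd3 siRNA and at 31.4, 26.7 and 29.5 CPM after Gnl3 siRNA, with 171 and 177 CPM in scramble. The groups did not overlap, and the high value of the Nmd3 group was in replicate 2, the library that stood apart. Its log2 difference was 2.81 (SE 0.23, edgeR adjusted p = 0.00573). The call was lost without Gnl3 replicate 1 (adjusted p = 0.0513). Gnl3 overlaps exons of Pbrm1 on the other strand, and the strand setting of counting is not given in the sources used here, so reads of that gene may be among its counts. The other called genes named below that lie opposite an annotated exon are Jdp2 (Gm47863), Palm3 (Il27ra), Acp2 (Ddb2), Slain1 (Gm22877 and Slain1os), Synm (Gm45102 and Ttc23), Antxr1 (n-R5s164), Mroh1 (Bop1), Tbx3 (Tbx3os1), Dnmt3l (Aire), Tdh (Gm17232), Bmp4 (Gm15217), Cars (Gm15580), Hexa (Tmem202), Fzd5 (Gm38058), Ptpn14 (Gm26574), Ccn2 (Gm15270), Erp29 (Naa25 and Tmem116), Krt8 (Gm36026), Cdkn1a (AC167363.2), Pck2 (Gm10876), Thbs1 (Gm29233), Derl2 (Mis12), Ssr2 (Gm10704) and Emc8 (Cox4i1). Of those named and not called, Gnl2 (Dnali1), Eif6 (Gm16098), Pou5f1 (Gm19553), Ddit3 (Gm4189 and Mars) and Mars (Ddit3) do so.

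**Figure D1:**
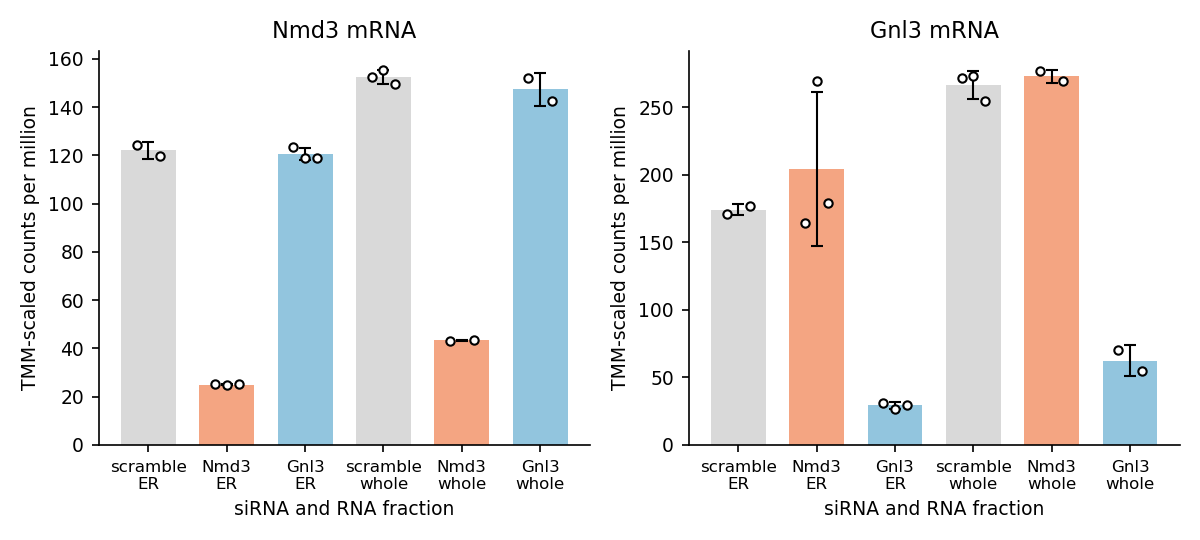
Levels of Nmd3 (left) and Gnl3 (right) mRNA in TMM-scaled CPM on a linear axis; open points are libraries, bars are group means and error bars the SD, with 2 whole-cell libraries that the labels name as outliers left out. Each mRNA was low in both fractions only after its own siRNA, and Nmd3 siRNA replicate 2 on ER ribosomes was high for Gnl3 at 269.

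On ER ribosomes 387 of 17632 genes tested differed between the siRNAs at an adjusted p under 0.05 (2.19%). Of these, 174 were higher after Nmd3 siRNA (0.987%) and 213 were higher after Gnl3 siRNA (1.21%). Most differences were small: the median size among called genes was 0.31 (log2), 66 exceeded 0.5, and 12 exceeded 1. Beside Nmd3 and Gnl3, all 10 genes over 1 had a mean level under 5 CPM. CPM ranges of the 2 groups did not overlap for 173 of the 174 and for 213 of the 213. This largely repeats the call, and the share over all genes tested was not counted. The number called was 703 without Nmd3 replicate 2, of which 356 were among the 387, and 159, 206 and 204 without Gnl3 replicate 1, 2 or 3. With library totals in place of TMM scaling the split of the calls moved from 45.0% to 34.8% higher after Nmd3 siRNA (145 of 417).

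**Figure D2:**
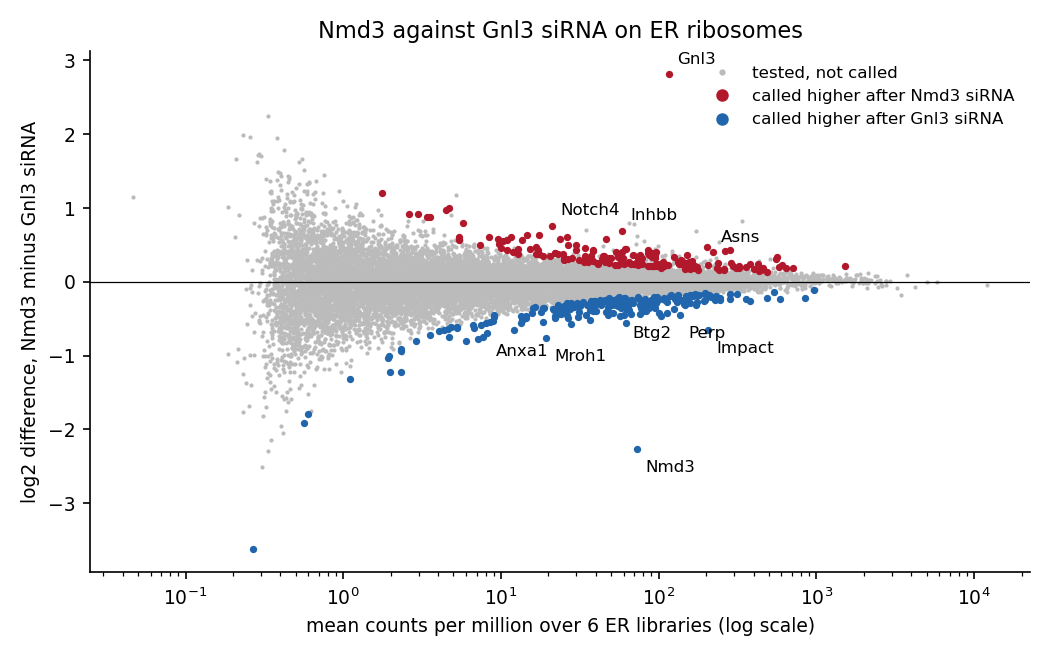
Each point is a gene tested on ER ribosomes; the horizontal axis is its mean CPM over the 6 libraries (log scale) and the vertical axis its log2 difference, Nmd3 minus Gnl3 siRNA. Grey points were not called, red were called higher after Nmd3 siRNA (174) and blue higher after Gnl3 siRNA (213), and apart from Nmd3 and Gnl3 the called genes above 5 CPM lie within 1 of 0.

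Of 53 p53 targets tested, 21 were called higher after Gnl3 siRNA and 0 higher after Nmd3 siRNA, where 1.21% and 0.987% of all genes were called. The list and its members were chosen with earlier results of these data known, so this comparison is a description and no independent support. At an unadjusted p under 0.05 the edgeR counts were 32 and 3, and the DESeq2 Wald test called 21 and 0. The median log2 difference of the 53 was -0.20, against 0.0065 over all genes tested. The counts were 24 and 0 without Nmd3 replicate 2, and without Gnl3 replicate 1 they were 13 and 0. Of the 53, 50 had a mean of at least 5 CPM, while all genes tested include many at lower levels. Among 11659 genes with at least 5 CPM in 3 libraries, 216 were called higher after Gnl3 siRNA and 169 higher after Nmd3 siRNA.

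Perp, a p53-induced membrane protein of desmosomes, held 111, 115 and 121 CPM after Nmd3 siRNA and 165, 156 and 152 CPM after Gnl3 siRNA, with 97.0 and 90.7 CPM in scramble. All Gnl3 libraries were above all Nmd3 libraries, and these were above scramble. The difference was -0.45 (SE 0.05, edgeR adjusted p = 4.7e-06).

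Btg2, an antiproliferative cofactor of mRNA deadenylation, was at 55.5, 46.9 and 51.3 CPM after Nmd3 siRNA, 72.2, 70.7 and 67.2 CPM after Gnl3 siRNA, and 46.9 and 46.3 CPM in scramble. Its Gnl3 values stood above the rest, and the Nmd3 values began at the scramble level (-0.45, SE 0.06, edgeR adjusted p = 8.48e-05). Plk2, a polo-like kinase that p53 induces, held 61.1, 63.1 and 69.9 CPM against 87.5, 86.0 and 88.3 CPM, and 54.7 and 60.5 CPM in scramble. Again the siRNA groups did not overlap (-0.43, SE 0.06, edgeR adjusted p = 7.75e-05).

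Mdm2, both a target and the main brake of p53, was at 126, 120 and 145 CPM after Nmd3 siRNA and 168, 156 and 163 CPM after Gnl3 siRNA, with 126 and 129 CPM in scramble. Its Nmd3 values spanned the scramble values and its Gnl3 values lay above them (-0.32, SE 0.06, edgeR adjusted p = 0.00254). Cdkn1a, the p21 inhibitor of cyclin-dependent kinases, was closer: 48.0, 50.2 and 51.8 CPM against 57.3, 60.5 and 57.8 CPM, with 51.6 and 53.6 CPM in scramble. The groups were close and did not overlap (-0.23, SE 0.06, edgeR adjusted p = 0.0397), and the call was lost without Nmd3 replicate 1 or without any Gnl3 replicate (adjusted p from 0.106 to 0.211).

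Polk, a translesion DNA polymerase, had the largest called difference of the list (-0.49, SE 0.12, edgeR adjusted p = 0.0261), at 12.7, 9.47 and 13.8 CPM against 18.7, 15.3 and 16.6 CPM. It lost its call without Nmd3 replicate 1 or 2, or Gnl3 replicate 1 or 3 (adjusted p from 0.052 to 0.199). The proapoptotic BH3 genes Pmaip1 (-0.42) and Bbc3 (-0.38), the autophagy-linked Trp53inp1 (-0.37), the Akt inhibitor Phlda3 (-0.35), the RNA-binding Zmat3 (-0.31) and the cyclin Ccng1 (-0.27) were called in the same direction. Ccng1 lost its call without Gnl3 replicate 1 (adjusted p = 0.0682). Trp53 itself differed by -0.01 (adjusted p = 0.937) and Bax by -0.02 (adjusted p = 0.902), as edgeR gave them.

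Of the 21 called p53 targets, 15 were called higher after Gnl3 siRNA than after scramble, and 1, Perp (0.30, adjusted p = 0.00506), was called after Nmd3 siRNA. Their differences from scramble ran from 0.13 to 0.75 after Gnl3 siRNA, with a median of 0.35. After Nmd3 siRNA they ran from -0.20 to 0.30, with a median of 0.04. Both sets of values share the 2 scramble libraries, and the 21 were picked by their difference between the siRNAs in the same libraries. Over all 53 targets tested, 21 (not the same set) were called higher and 1 lower than scramble after Gnl3 siRNA (median 0.21). After Nmd3 siRNA 3 were called higher and 0 lower (median 0.05). The share of all genes called in either test against scramble was not counted, so these counts have no background beside them. The Nmd3 against Gnl3 test above is itself the test of the difference between these distances.

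Of 50 genes of the integrated stress response list, 18 were called higher after Nmd3 siRNA and 2 higher after Gnl3 siRNA (0.987% and 1.21% of all genes), and the median difference was 0.19. Among them were 5 of the tRNA synthetases (Gars, Tars, Sars, Nars and Cars, 0.18 to 0.22), the serine pathway enzymes Phgdh and Psat1, and the amino acid transporters Slc7a1 and Slc7a5. Phgdh, Slc7a5 and 4 of these synthetases (Gars, Tars, Sars and Cars) lost the call without at least 1 library, Gnl3 replicate 1 among them for each (highest adjusted p from 0.0766 to 0.181). The synthetase Mars, at 58.2, 154 and 50.7 CPM after Nmd3 siRNA, was high only in replicate 2 and was not called (0.78, adjusted p = 0.57). The counts were 25 and 3, with a median of 0.14, without Nmd3 replicate 2. They were 10 and 2 without Gnl3 replicate 1, and 11 and 2 without Gnl3 replicate 3. This list too was chosen with earlier results of these data known. Of its 50 tested members, 49 had a mean of at least 5 CPM. Among 11659 genes with at least 5 CPM in 3 libraries, 169 were called higher after Nmd3 siRNA and 216 higher after Gnl3 siRNA.

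The promoters of the list are shown because its defining factor reads a known element, the C/EBP-ATF response element. RefSeq promoters of build GRCm38.p6 (250 bases before to 50 after the gene's start) were searched for TGATGNAA or its reverse complement TTNCATCA on both strands. Among the 40 list members with a promoter in that table, 14 held it (35.0%), against 2.69% of 11735 tested genes and 4.51% of all 27025 genes in the table. The list is of targets of the factor that reads this element, so the higher share could follow from the choice of list alone. Of the 14 with a promoter that were called higher after Nmd3 siRNA, 6 held it: Nupr1, Chac1, Pck2, Asns, Tars and Gars. It was also in 8 of the 26 that were not called higher (30.8%, against 42.9% of the 14), a difference that was not tested. Among these 8, Atf3 (-0.21), itself a stress-induced factor, and the cystine transporter Slc7a11 (-0.18) were lower after Nmd3 siRNA, neither of them called. The rest of the 8 differed by 0.09 to 0.28, higher after Nmd3 siRNA and likewise not called. Windows of 40 bases that lie whole before the start are given for 4 of the 6, and for Atf3 and Slc7a11 for comparison, 5′ to 3′ on the gene's strand, with the match in capitals.
Chac1 (chr2:119351033-119351072, plus strand): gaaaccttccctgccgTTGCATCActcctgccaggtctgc
Nupr1 (chr7:126625557-126625596, minus strand): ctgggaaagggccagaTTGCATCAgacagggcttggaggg
Pck2 (chr14:55540147-55540186, plus strand): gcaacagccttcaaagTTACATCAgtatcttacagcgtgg
Gars (chr6:55037955-55037994, plus strand): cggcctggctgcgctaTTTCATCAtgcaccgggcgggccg
Atf3 (chr1:191183420-191183459, minus strand): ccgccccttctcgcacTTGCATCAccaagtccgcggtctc
Slc7a11 (chr3:50443637-50443676, minus strand): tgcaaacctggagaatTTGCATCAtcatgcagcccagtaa
In this order the match in capitals began 193, 110, 103, 30, 110 and 47 bases before the start, each in the reverse orientation. Slc7a11 held another match, in the orientation TGATGNAA, 66 bases before the start. The printed window holds only the end of that match, in lower case. A match is a description of these letters, and no binding was measured.

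Nupr1, a small stress-induced chromatin protein, was at 40.5, 38.0 and 39.5 CPM after Nmd3 siRNA, 25.8, 29.8 and 30.4 CPM after Gnl3 siRNA, and 41.4 and 36.5 CPM in scramble. The Nmd3 libraries lay within the scramble range and the Gnl3 libraries lay below it (0.46, SE 0.08, edgeR adjusted p = 0.000665). Gpt2, the mitochondrial alanine transaminase, held 76.9, 69.5 and 67.4 CPM against 47.6, 52.8 and 56.1 CPM, with 70.4 and 73.6 CPM in scramble. Here too the Gnl3 group was the low group (0.45, SE 0.07, edgeR adjusted p = 0.000129).

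Chac1, which degrades glutathione, was at 46.5, 46.1 and 39.1 CPM after Nmd3 siRNA and 28.7, 35.4 and 33.5 CPM after Gnl3 siRNA, with 52.6 and 48.3 CPM in scramble. Every siRNA library was below scramble, and the Gnl3 libraries were lowest (0.43, SE 0.08, edgeR adjusted p = 0.00356). Asns, asparagine synthetase, was at 249, 269 and 232 CPM against 178, 193 and 198 CPM, with 218 and 207 CPM in scramble. For this gene scramble lay between the groups (0.40, SE 0.05, edgeR adjusted p = 6.08e-05). Pck2, the mitochondrial phosphoenolpyruvate carboxykinase, differed by 0.41 and the folate enzyme Mthfd2 by 0.37. Atf4 itself differed by 0.12 (edgeR adjusted p = 0.183), Trib3 by 0.13 (adjusted p = 0.331) and Ddit3, which overlaps Mars, by 0.17 (adjusted p = 0.345).

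Of the 18, 12 were called lower after Gnl3 siRNA than after scramble, and 1, Asns (0.24, edgeR adjusted p = 0.0418), was called higher after Nmd3 siRNA. Distances from scramble ran from -0.63 to -0.09 after Gnl3 siRNA (median -0.21) and from -0.20 to 0.24 after Nmd3 siRNA (median 0.02), over the same 2 scramble libraries. The 18 were likewise picked by their difference between the siRNAs. Over all 50 list members tested, 1 was called higher and 14 lower than scramble after Gnl3 siRNA (median -0.15). After Nmd3 siRNA 2 were called higher and 1 lower (median 0.01). Here too the share of all genes called against scramble was not counted.

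**Figure D3:**
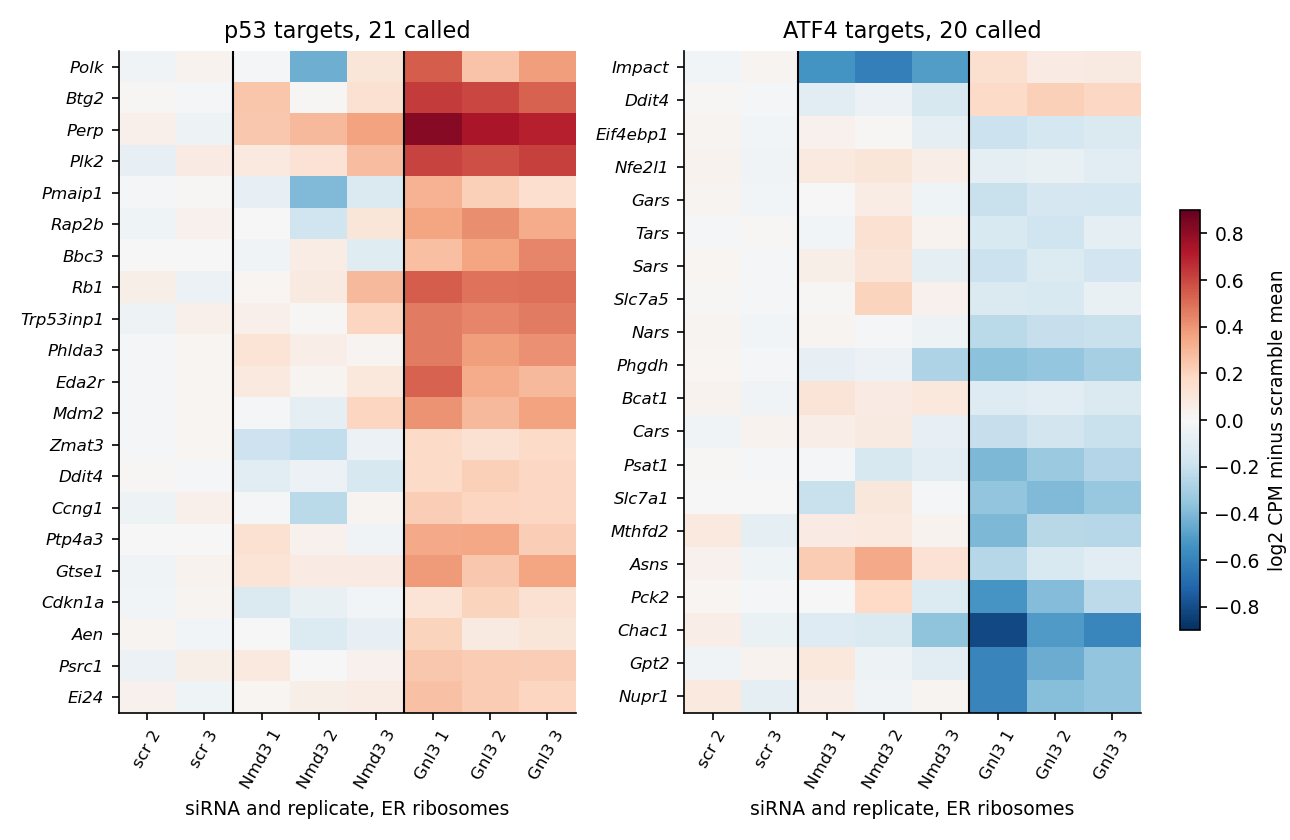
Each cell is the log2 CPM of a called list member (row) in an ER ribosome-bound library (column) less the mean of the 2 scramble libraries; red is higher and blue lower, and black lines part the scramble, Nmd3 and Gnl3 siRNA libraries. Averaged over the Gnl3 columns, the 21 p53 targets (left) lie above 0 and 18 of the 20 called genes of the Atf4 list (right) below 0. Impact, on that list, is the lowest gene in the Nmd3 columns, at -0.55.

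The exceptions in the Atf4 list were Impact, which acts upstream of Atf4 and is not an established target of it, and Ddit4. Impact, a protein that binds Gcn1 and keeps the eIF2 kinase Gcn2 from being activated, was at 161, 153 and 166 CPM after Nmd3 siRNA and 260, 247 and 248 CPM after Gnl3 siRNA, with 230 and 240 CPM in scramble. Only the Nmd3 libraries were low. The difference was -0.65 (SE 0.04, edgeR adjusted p = 2.15e-10), and it was called under all 14 alternatives. Against scramble it fell by 0.55 after Nmd3 siRNA (edgeR adjusted p = 9.18e-08) and was at 0.10 after Gnl3 siRNA (adjusted p = 0.359). Ddit4, an mTORC1 inhibitor and also on the p53 list, differed by -0.29 (edgeR adjusted p = 0.000243).

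Of 48 large-subunit and 33 small-subunit ribosomal protein genes, edgeR and DESeq2 called 0. At an unadjusted p under 0.05, 9 and 5 were higher after Nmd3 siRNA and 0 and 0 lower, and the medians were 0.04 and 0.03. Without Nmd3 replicate 2, edgeR called 4 and 1 higher after Nmd3 siRNA. On the list of 60S assembly and export (73 tested), the called genes were Gnl3, Nmd3 and Midn (-0.27), and the median was 0.05. Leaving out Nmd3 replicate 2 gave 3 higher after Nmd3 siRNA and 2 higher after Gnl3 siRNA. Midn encodes midnolin, which is not an established 60S assembly factor, so its place on the list is doubtful. The nucleolar GTPase Gnl2, high in Nmd3 replicate 2 at 124 CPM, differed by 0.30 (edgeR adjusted p = 0.54), Gnl3l by -0.08 (adjusted p = 0.56), Eif6, which keeps the new subunit from joining, by 0.02 (adjusted p = 0.9) and Lsg1, the GTPase that releases Nmd3 in the cytoplasm, by 0.08 (adjusted p = 0.583). Of 56 small-subunit assembly genes 1, Ngdn (0.22), was called, and it lost the call without Nmd3 replicate 3 or any Gnl3 replicate (adjusted p from 0.107 to 0.19). That list had 5 higher after Nmd3 siRNA without Nmd3 replicate 2, and 1 higher after Gnl3 siRNA. With all libraries, 0.987% of all genes tested were called higher after Nmd3 siRNA and 1.21% higher after Gnl3 siRNA.

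Of 39 pluripotency genes tested, 7 were called higher after Nmd3 siRNA and 1, Dnmt3l (-0.22, opposite Aire), higher after Gnl3 siRNA. Of all genes tested 0.987% and 1.21% were called in these directions, and the list median was 0.06. Without Nmd3 replicate 2 the list counts were 11 and 1. Nanog, a core homeobox factor, was at 653, 601 and 646 CPM after Nmd3 siRNA and 482, 509 and 509 CPM after Gnl3 siRNA, with 602 and 583 CPM in scramble. Only the Gnl3 libraries lay below scramble (0.34, SE 0.04, edgeR adjusted p = 4.7e-06). Tbx3 was at 174, 168 and 170 CPM against 129, 137 and 132 CPM, with 134 and 137 CPM in scramble, so that here the Nmd3 libraries were the high ones (0.36, SE 0.05, edgeR adjusted p = 1.91e-05; opposite Tbx3os1).

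Tcl1, a cofactor of Akt, differed by 0.40 (edgeR adjusted p = 7.55e-05) and Prdm14 by 0.37 (adjusted p = 0.0143). Prdm14 lost its call without Nmd3 replicate 1 or Gnl3 replicate 1 or 3 (adjusted p from 0.0658 to 0.122). Tdh, Tfcp2l1 and Esrrb were called at 0.22, 0.19 and 0.18, and Tfcp2l1 lost its call without Nmd3 replicate 1 or any Gnl3 replicate (adjusted p from 0.106 to 0.119). Pou5f1 (0.11, edgeR adjusted p = 0.0666) and Sox2 (0.00, adjusted p = 0.985) were not called. Of 18 2-cell-like genes 0 were called by edgeR or DESeq2 (2 at an unadjusted p under 0.05). Their median was -0.18, with 1 of the 18 above 0, and only 5 had a mean of at least 5 CPM.

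Of 66 targets of Yap and of serum response factor, with adhesion and cytoskeletal genes, 9 were called higher after Gnl3 siRNA and 0 higher after Nmd3 siRNA, with 23 and 1 at an unadjusted p under 0.05 and 7 and 0 by DESeq2. With Nmd3 replicate 2 left out they were 12 and 1. Over all genes tested, with every library kept, 1.21% were called higher after Gnl3 siRNA and 0.987% higher after Nmd3 siRNA. Anxa1, annexin A1, was at 7.09, 5.70 and 5.95 CPM after Nmd3 siRNA and 11.5, 8.71 and 10.2 CPM after Gnl3 siRNA, with 5.0 and 4.9 CPM in scramble. Its Gnl3 values were highest throughout (-0.70, SE 0.14, edgeR adjusted p = 0.00473), and the call was lost without Gnl3 replicate 1 (adjusted p = 0.0688).

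Ccn2, a matricellular protein and standard Yap target (opposite Gm15270), held 77.7, 73.1 and 78.6 CPM against 99.5, 101 and 92.2 CPM, with 68.6 and 67.4 CPM in scramble. Both siRNA groups were above scramble and the Gnl3 group more so (-0.35, SE 0.05, edgeR adjusted p = 0.000262). The epithelial keratins Krt8 (-0.58) and Krt19 (-0.53), the caveolar coat protein Cavin1 (-0.32), the Yap-binding phosphatase Ptpn14 (-0.31) and Ccn1 (-0.28) were called alike. Krt8 and Krt19 were also the 2 called of 26 primitive endoderm genes, and Krt8, at 18.7 to 24.3 and 32.6 to 34.2 unscaled CPM, is 1 of the 8 trophoblast markers whose sum was higher after Gnl3 siRNA. Sums over the longer trophoblast list overlapped, at 160.5 to 165.8 CPM after Nmd3 siRNA and 157.4 to 171.9 CPM after Gnl3 siRNA. The part of other cell types in these differences was not tested. Krt19 lost its call without Nmd3 replicate 1 or Gnl3 replicate 2 or 3 (adjusted p from 0.0941 to 0.107), and Ccn1 without Gnl3 replicate 2 (adjusted p = 0.0683).

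Genes of secreted proteins, which ER ribosomes translate, were called in both directions: 6 of 71 higher after Nmd3 siRNA and 4 higher after Gnl3 siRNA (median 0.02). The shares over all genes tested were 0.987% and 1.21%. Inhbb, the activin beta-B subunit, was at 76.5, 67.0 and 73.8 CPM after Nmd3 siRNA and 46.9, 42.4 and 45.0 CPM after Gnl3 siRNA, with 67.0 and 67.9 CPM in scramble. The Gnl3 libraries alone were low (0.70, SE 0.06, edgeR adjusted p = 1.04e-07). The gene of pro-thyrotropin-releasing hormone, Trh, was at 293, 312 and 304 CPM against 214, 236 and 230 CPM, with 378 and 372 CPM in scramble. Both groups were below scramble, the Gnl3 group further (0.42, SE 0.04, edgeR adjusted p = 1.12e-06). Wfdc2 (0.44), Spp1, osteopontin (0.31), Sfrp1, a Wnt antagonist (0.25), and Apoe (0.22) were higher after Nmd3 siRNA. Thrombospondin Thbs1 (-0.55), Ccn2, the protease inhibitor Serpine2 (-0.33) and Ccn1 were higher after Gnl3 siRNA. Thbs1 lost its call without Gnl3 replicate 1 (adjusted p = 0.0533), as did Sfrp1 (without any Gnl3 replicate, highest adjusted p = 0.0811) and Apoe (without Nmd3 replicate 1, 0.128). Without Nmd3 replicate 2 the counts were 8 and 8.

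Of 49 ER chaperone and unfolded protein response genes 4 were called higher after Nmd3 siRNA (Herpud1, Cnpy2, Mesd and Erp29, 0.16 to 0.30) and 1, Derl2 (-0.25), higher after Gnl3 siRNA. Of 57 genes of signal recognition, translocon and glycan transfer, Ssr2, a translocon-associated subunit (0.19), and Emc8 (0.17) were called higher after Nmd3 siRNA, and the signal peptidase subunit Spcs2 (-0.16) higher after Gnl3 siRNA. The latter counts were 2 and 2 when Nmd3 replicate 2 was left out. Lysosomal genes had 3 of 52 called higher after Nmd3 siRNA (Lamp2 0.41, Lgmn 0.32 and Hexa 0.25) and 0 higher after Gnl3 siRNA (2 at an unadjusted p under 0.05, 0 by DESeq2). Plasma membrane receptors had 1 and 2 of 80 called, Kit (0.24) against Sdc4 (-0.29) and Fzd5 (-0.17). The receptor list had 0 and 12 when Nmd3 replicate 2 was left out. With all libraries, 0.987% of all genes tested were called higher after Nmd3 siRNA and 1.21% higher after Gnl3 siRNA. The receptor counts, 1 and 2 of 80, are close to these shares, and no list was tested against them. Of the genes in these 4 lists, Herpud1, Cnpy2, Mesd, Erp29, Derl2, Emc8, Spcs2, Lgmn, Hexa, Kit and Fzd5 lost the call without Gnl3 replicate 1 (adjusted p from 0.0679 to 0.259), and most of them also without another library.

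Solute carriers had 3 of 55 called higher after Nmd3 siRNA, the zinc importer Slc39a4 (0.39) with Slc7a1 and Slc7a5, and 2 higher after Gnl3 siRNA, the thiamine transporter Slc19a2 (-0.46) and Slc39a10 (-0.21). When Nmd3 replicate 2 was left out the solute carriers had 4 and 5, and their median went from 0.08 to 0.0014. In Nodal, BMP and Wnt signalling Bmp4 (0.24, opposite Gm15217) was called higher after Nmd3 siRNA, and Id1 (-0.42), Id2 (-0.32) and Skil (-0.28) higher after Gnl3 siRNA, of 48. Without Nmd3 replicate 2 these counts were 3 and 7. Beside the solute carrier and signalling lists, 0.987% of all genes tested were called higher after Nmd3 siRNA and 1.21% higher after Gnl3 siRNA. Id1, an inhibitor of basic helix-loop-helix factors and a BMP target, was at 96.8, 100 and 93.2 CPM after Nmd3 siRNA and 136, 127 and 127 CPM after Gnl3 siRNA, with 89.1 and 90.2 CPM in scramble. The Gnl3 values stood far above scramble and the Nmd3 values just above it (edgeR adjusted p = 1.04e-05). Bmp4, Id2, Slc39a10 and Slc7a5 lost the call without Gnl3 replicate 1 (adjusted p from 0.0846 to 0.232).

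Of 31 epiblast and germ layer genes Tubb3 (0.34) was called higher after Nmd3 siRNA and Sox1 (-0.65) and Zic2 (-0.26) higher after Gnl3 siRNA. Of 53 translation factors the called ones were Eif4ebp1 (0.15) and Impact, of 31 glycolysis and hypoxia genes Ldhb (0.25) and Pgk1 (-0.12), and of 16 nuclear long noncoding RNAs Neat1 (-0.52). With Nmd3 replicate 2 left out, the epiblast list had 1 and 4 called, the glycolysis list 2 and 5 and the translation factors 2 and 2. With all libraries, 0.987% of all genes tested were called higher after Nmd3 siRNA and 1.21% higher after Gnl3 siRNA. Neat1, Eif4ebp1, Ldhb and Pgk1 lost the call without Gnl3 replicate 1 (adjusted p from 0.072 to 0.216), and Zic2 without Gnl3 replicate 3 (adjusted p = 0.248). Lists with 0 called by edgeR were mitosis (47 tested), DNA replication (49), the proteasome (34), heat shock proteins (25), the interferon response (25), snoRNA hosts (16), cholesterol and fatty acid synthesis (38), the nuclear-encoded respiratory chain (74) and mitochondrially encoded mRNAs (7). So were the lists of fibroblast and feeder (11), endothelial and blood (11) and trophoblast (12) markers. DESeq2 called 1 endothelial and blood marker and 0 in the others. At an unadjusted p under 0.05, 7 proteasome genes, 7 heat shock genes, 6 replication genes and 4 of lipid synthesis were higher after Nmd3 siRNA, and the other lists had at most 3 in either direction, apart from the respiratory chain. The respiratory chain list had 20 higher after Nmd3 siRNA and 0 lower, with a median of 0.07, and 5 were called without Nmd3 replicate 2. Without that library 4 lipid synthesis genes were called higher after Gnl3 siRNA, and replication had 2 higher after Nmd3 siRNA and 1 higher after Gnl3 siRNA. Heat shock proteins then had 2 and 2, the proteasome and endothelial lists 1 and 0 each, and the mitosis, interferon and feeder lists 0 and 1 each.

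**Figure D4:**
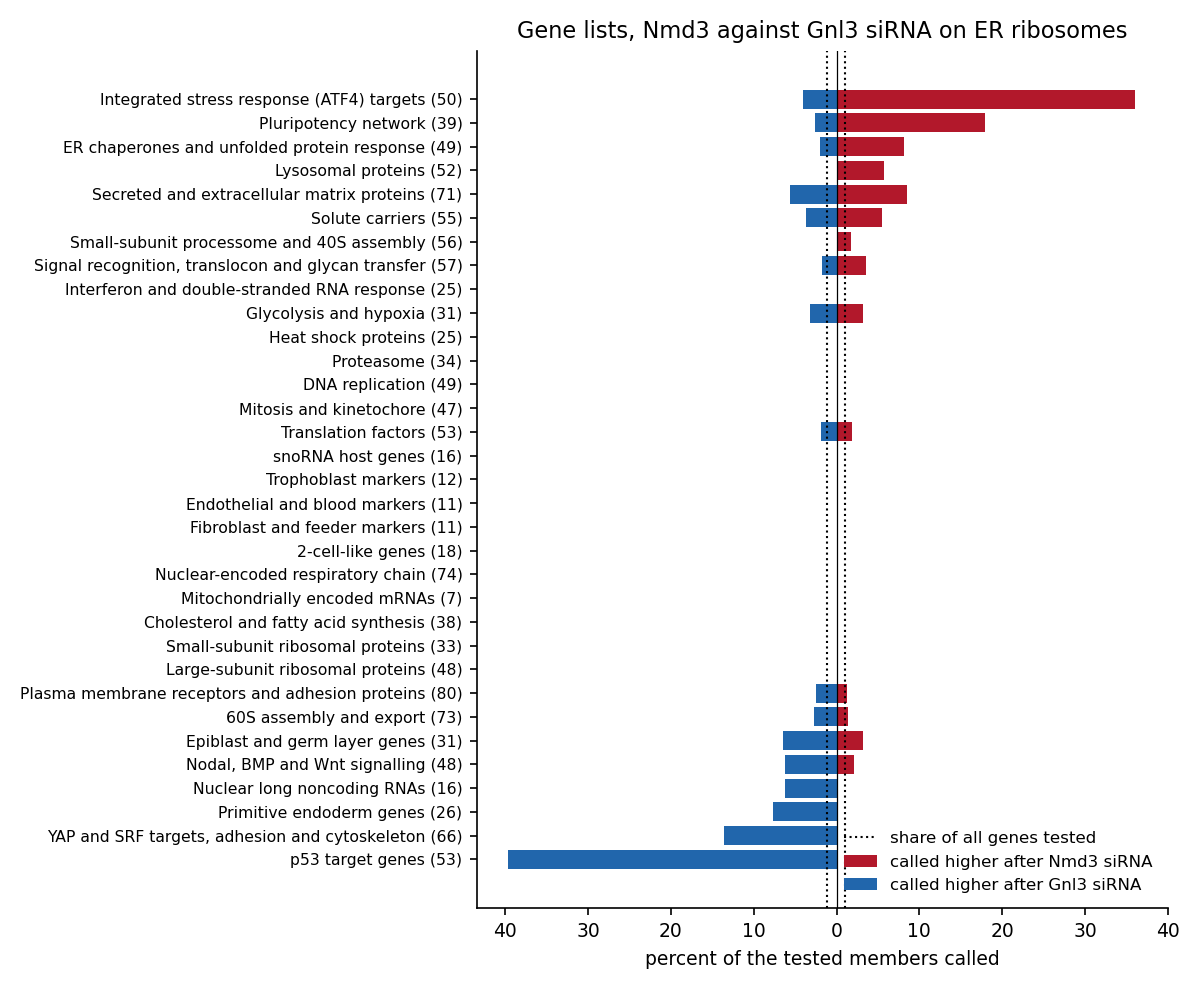
For each gene list (number tested in brackets), bars give the percent of tested members called higher after Nmd3 siRNA (red, to the right) and after Gnl3 siRNA (blue, to the left); dotted lines mark the shares over all genes tested, 0.987% and 1.21%. The Atf4 list (18 of 50) and the p53 targets (21 of 53) have the longest bars, in opposite directions. Lists and members were chosen with earlier results of these data known.

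Among all genes of at least 5 CPM, those with the largest called differences higher after Nmd3 siRNA, Gnl3 itself aside, were Jdp2, an AP-1 family repressor (0.80), the receptor Notch4 (0.76), Inhbb, Reck, a membrane-bound inhibitor of metalloproteinases (0.64), the phospholipase Plcd1 (0.64), Palm3 (0.61), the peptide transporter Slc15a1 (0.61), the inositol trisphosphate kinase Itpka (0.61), the autophagy receptor Calcoco2 (0.60), the lysosomal phosphatase Acp2 (0.59), the microtubule-binding Slain1 (0.58), Fgf17 (0.58), Fetub (0.57) and the sterol acyltransferase Soat2 (0.57). Notch4 was at 22.6, 32.7 and 24.0 CPM after Nmd3 siRNA and 15.4, 15.9 and 15.7 CPM after Gnl3 siRNA, with 22.0 and 20.9 CPM in scramble. Its Gnl3 libraries were the low ones, and Nmd3 replicate 2 was above its group (SE 0.11, edgeR adjusted p = 0.000459). Fgf17, a growth factor, was at 56.8, 57.6 and 51.6 CPM against 36.1, 37.9 and 37.1 CPM, with 55.7 and 51.5 CPM in scramble. Nmd3 and scramble libraries overlapped, and the Gnl3 group lay apart (SE 0.06, edgeR adjusted p = 4.7e-06). Slc15a1, Itpka and Fetub lost the call without Gnl3 replicate 1 (adjusted p = 0.141, 0.18 and 0.196), Calcoco2 without Gnl3 replicate 2 (0.0741) and Slain1 without Gnl3 replicate 3 (0.07). Soat2 lost it without any of the 6 libraries (highest adjusted p = 0.179).

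In the other direction, Nmd3 itself aside, they were the collagen receptor Antxr1 (-0.81), the intermediate filament protein Synm (-0.78), Mroh1 (-0.76), the neuroendocrine factor Insm1 (-0.75), Anxa1, the neural factor Sox1 (-0.65), Impact, the ciliogenesis factor Foxj1 (-0.63), the rootlet gene Crocc2 (-0.63), Zhx1 (-0.61), the kinase inhibitor Inka2 (-0.59), the podosome adaptor Sh3pxd2b (-0.58), Krt8 and the lysophosphatidic acid receptor Lpar4 (-0.56). Mroh1, which lies opposite Bop1, was at 13.8, 16.6 and 12.5 CPM after Nmd3 siRNA and 23.5, 24.9 and 24.5 CPM after Gnl3 siRNA, with 25.8 and 26.1 CPM in scramble. As at Impact, the Nmd3 libraries were the low ones (SE 0.10, edgeR adjusted p = 2.45e-05; against scramble -0.86 after Nmd3 siRNA and -0.10 after Gnl3 siRNA). Antxr1 was at 4.38, 5.09 and 3.66 CPM against 8.58, 7.02 and 7.43 CPM, with 7.49 and 7.81 CPM in scramble, the same order of groups (SE 0.15, edgeR adjusted p = 0.00247). Crocc2, Foxj1, Inka2, Lpar4, Sh3pxd2b and Zhx1 each lost the call without Gnl3 replicate 1 and at least 1 other library (highest adjusted p from 0.0927 to 0.194).

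Both siRNAs can be set beside scramble. Of the 174 higher after Nmd3 siRNA, 67 were called lower after Gnl3 siRNA than after scramble, and 15 were called higher after Nmd3 siRNA than after scramble. For the 213 higher after Gnl3 siRNA the numbers were 69 and 28. Median distances from scramble were 0.11 (Nmd3) and -0.20 (Gnl3) for the first set, and -0.13 and 0.21 for the second. These values share the 2 scramble libraries and are given side by side. Both sets were picked by their difference between the siRNAs in the same libraries. The share of all genes called in each test against scramble was not counted. These numbers therefore do not say which siRNA moved more genes.

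In whole-cell RNA of the same lysates 37 of 17490 genes were called (0.212%) over 2 Nmd3, 2 Gnl3 and 3 scramble libraries, without the 2 that the labels say the submitters left out. With all 9 libraries edgeR called 0 (1148 at an unadjusted p under 0.05), and without Nmd3 whole-cell replicate 3 it called 983. It called 24 without Nmd3 replicate 1, and 7 and 16 without Gnl3 replicate 1 or 2. Of the 174 genes higher after Nmd3 siRNA on ER ribosomes, 167 of 174 tested had the same sign in whole-cell RNA, and 17 were called there (median 0.29 on ER ribosomes and 0.21 in whole-cell RNA). Of the 213 higher after Gnl3 siRNA it was 204 of 212 tested and 15 called (medians -0.32 and -0.24). Each lysate gave both libraries, so the fractions are not independent.

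For the 21 called p53 targets 21 had the same sign in whole-cell RNA, and 6 were called there: Plk2 (-0.54), Perp (-0.42), Eda2r (-0.42), Ptp4a3 (-0.40), Trp53inp1 (-0.36) and Gtse1 (-0.29). For the 18 Atf4 targets 18 had the same sign, and Pck2 (0.43), Asns (0.38), Phgdh (0.38) and Gpt2 (0.37) were called. Among all called genes 204 of 212 and 167 of 174 had the same sign, so this is not particular to these lists. The share with the same sign over all genes tested was not counted. Inhbb (0.62), Notch4 (0.66), Palm3 (0.58), Impact (-0.49) and Mroh1 (-0.79) were called in whole-cell RNA as well.

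**Figure D5:**
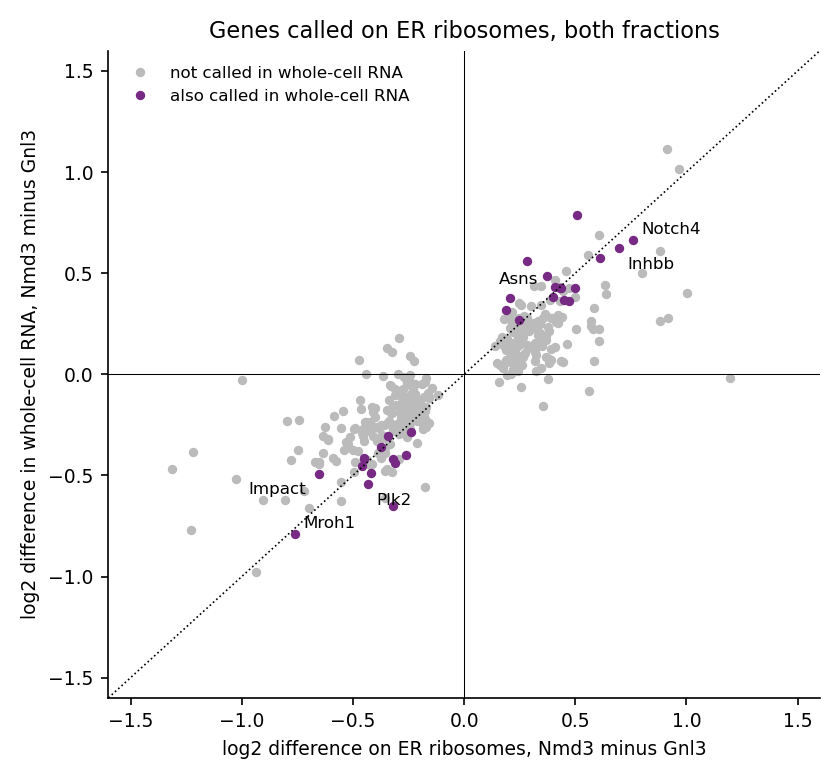
Genes called on ER ribosomes, with the log2 difference (Nmd3 minus Gnl3 siRNA) on ER ribosomes on the horizontal axis and in whole-cell RNA on the vertical axis; purple points were also called in whole-cell RNA, the dotted line marks equal differences, and 4 points lie outside the axes. Most genes fall in the lower left (204) and upper right (167) quadrants, counts that include Nmd3 and Gnl3 outside the axes.

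A test of the ER difference less the whole-cell difference called 1 gene of 18271 (0.00547%), with 791 at an unadjusted p under 0.05. This was Nmd3, at -2.27 on ER ribosomes and -1.76 in whole-cell RNA, a difference of -0.50 (SE 0.09, edgeR adjusted p = 0.0283). Its whole-cell levels were 43.2 and 43.5 CPM after Nmd3 siRNA and 152 and 143 CPM after Gnl3 siRNA. No gene was called without Nmd3 ER replicate 1 or 3 or without any Gnl3 ER replicate, nor with the lysate as a replicate block (799 at an unadjusted p under 0.05).

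Proteins of the called genes were described from the reference annotation. A hydrophobic stretch, a window of 19 residues with a mean hydropathy of at least 1.6, as signal peptides and membrane spans have, was found in 41.1% of the protein-coding genes higher after Nmd3 siRNA, 33.3% of those higher after Gnl3 siRNA and 34.7% of all tested. Median coding lengths were 1179, 1197 and 1392 bases. Called genes were also more abundant, with median levels of 73.8 and 56.2 CPM against 22 CPM over all tested, and the difference in share between these sets was not tested.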

How the data were processed

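The deposited files hold raw gene counts, 1 library each, with no normalization by the authors. Per the submitters' processing notes, STAR 2.7.9a, HTSeq 0.11.2, DESeq2 (no version) and build GRCm39 were used. The annotation release, strand setting and filters are not given in the sources used here. The 5 HTSeq lines that name no gene were left out (no feature took 46.61% to 48.35% of a library's lines). Of 55416 gene IDs, 52083 had a symbol in GENCODE M21, which also gave coding lengths and opposite-strand overlaps.

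Counts were tested in R 4.3.3 by the robust quasi-likelihood test of edgeR 4.0.16, after filterByExpr and TMM scaling, with Benjamini-Hochberg adjustment over all genes tested and calls at an adjusted p under 0.05. Fits held the 8 ER libraries (17632 genes, biological coefficient of variation 0.065), 7 whole-cell libraries (17490), and 15 libraries for the interaction (18271). SE is the absolute log2 difference over the square root of F. Log2 differences are Nmd3 minus Gnl3 siRNA. Replicates are labelled biological replicates, and p-values measure the spread between these samples. Alternatives were DESeq2 1.42.0, other scalings and filters, a replicate block, fewer libraries and each replicate left out. Code was tested on simulated data.

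The 33 lists matched 1429 of 1437 genes. Members and lists were chosen with earlier results of these data known. The naming rule took Nmd3, Gnl3, the 15 largest called differences per direction (mean of at least 5 CPM, groups not overlapping, no clone names), 2 called per list and direction, and called interaction genes, 68 in all. Other list members were named after their values were seen.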

Additional observations from a re-analysis of the deposited data

Results flagged for a closer look

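The difference between the siRNAs at Nmd3 mRNA was larger on ER ribosomes than in whole-cell RNA by -0.50 on the log2 scale (Nmd3 minus Gnl3 siRNA, edgeR adjusted p = 0.0283). It is listed here because the interaction test itself passed, the only gene of 18271 to do so. Levels after Nmd3 siRNA were 25.2, 24.7 and 25.2 CPM on ER ribosomes and 43.2 and 43.5 CPM in whole-cell RNA. The call was lost without Nmd3 ER replicate 1 or 3, without any of the 3 Gnl3 ER replicates, and with the lysate as a block.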

How the results depend on the processing

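Of the 68 genes named by the rule, 33 kept their call and direction under every alternative in which they could be tested, as did 28 of the 51 other called list members, and 0 of either reversed. On ER ribosomes 387 genes were called. Other counts were 586 without a filter on low counts, 385 with the strict filter, 388 with DESeq2 size factors, 417 with library totals, 258 with the 6 libraries alone and 318 with DESeq2. Leaving out each of the 6 Nmd3 and Gnl3 replicates in turn gave 159 to 703. In whole-cell RNA (37 called) all 9 libraries gave 0, no filter 122 and library totals 38, and leaving out each of the 2 Nmd3 and 2 Gnl3 replicates gave 7 to 983, where a lone library in a group is assumed to vary like the others. The interaction (1 called) gave 0 with all 17 libraries (840 at an unadjusted p under 0.05), and 0 to 1 on leaving out each of the 6 Nmd3 and Gnl3 ER replicates. Whole-cell libraries were not left out of the interaction, and single scramble libraries were left out of no comparison. The cause of these changes was not tested.

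With the replicate number as a block (replicate block) 280 genes were called on ER ribosomes, 274 of them among the 387, and 193 with the block and only the 6 libraries, an alternative chosen after seeing the data, as were all list counts under alternatives. In whole-cell RNA the block gave 63, and the lysate block gave 0 interaction calls. Residuals of same-numbered Nmd3 and Gnl3 ER libraries correlated at -0.01, -0.05 and -0.04, and those of different-numbered libraries at -0.0021 to 0.0411. No pairing was seen in these values, and a shared batch was not tested. Under the block Gnl3 lost its call (adjusted p = 0.0642, and 0.183 with the 6 libraries alone), the p53 list had 20 and 0 called, the Atf4 list 15 and 2. Apart from Nmd3 and Gnl3, all called differences over 1 (log2) were at mean levels under 5 CPM, and the part of depth in this was not tested.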
